A study of Mus musculus with 84 samples.

Results

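Messenger RNA of the liver was set against that of 6 other tissues taken, by the numbers in the sample titles, from the same lean wild-type (WT) mice. The liver group holds 3 libraries, 1 from each of 3 WT mice kept on a normal diet (ND), and the other groups hold 3 libraries each of aorta, epididymal fat, heart, hippocampus, hypothalamus and skeletal muscle of those mice, 18 in all. These 21 libraries are part of a series of 84, made from 12 mice that were WT or ob/ob, a leptin-deficient and obese genotype, on ND or on a high-fat diet (HFD), with 3 mice in each combination. All mice were dissected at 20 weeks, which the labels do not tie to age or to time on the diet, and strain background and sex are not given in the sources used here. The description of the RNA extraction names hearts for every sample, so tissue was taken from the titles. The liver label was checked below against marker genes, and the other labels were not each checked by their own markers. Library totals ran from 11661756 to 13198931 counts in liver and from 10725208 to 15954085 counts over all 21 libraries, and 17241 to 17695 genes had at least 1 count in a liver library. Which genes liver expresses more or less than each other tissue was the question of the comparison.

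The liver makes most proteins of the blood plasma, builds and takes up lipoproteins, turns cholesterol into bile acids and ammonia into urea, releases glucose during fasting, and modifies drugs and hormones for excretion. Hepatocytes, which form most of its mass, share it with Kupffer cells (resident macrophages), sinusoidal endothelial cells, stellate cells and the cholangiocytes of the bile ducts. A small group of transcription factors, among them HNF1, HNF4, FOXA, HNF6 and C/EBP proteins, is known to keep hepatocyte genes active.

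Levels are in CPM, counts relative to the library size after scaling by the trimmed mean of M values (TMM). Where levels of different genes are compared they are in TPM, which also divides by exon length. Differences are log2 of liver over the mean of the 6 other tissues, each tissue weighted equally, from edgeR's quasi-likelihood fit to all 21 libraries. After ± stands an approximate standard error, the size of the difference divided by the square root of its F statistic. Every adjusted p is a Benjamini-Hochberg value of the F test of that fit over the 18529 genes tested. A gene is called higher or lower past an adjusted p of 0.05. It is called liver-enriched where it was at least 4-fold higher, past that threshold, than in each of the 6 tissues taken alone, and liver-low where it was at least 4-fold lower than in each. Many liver genes had 0 counts in a whole tissue, and there the fitted difference depends on the small count that the software adds. For several of the highest genes the ratio of mean CPM to the next-highest tissue is given in its place, and medians of gene lists are also given with every tissue mean under 3 counts over its group raised to that floor. The RNA is of whole tissue, so fewer cells of a type and less RNA per cell cannot be told apart. Statements below that livers lie apart from all other libraries describe genes mostly chosen by level, difference or smallest p. The share of all tested genes for which this holds is not given here.

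The liver libraries matched their label. Of 10 hepatocyte markers, 10 were higher than in the mean of the other tissues and 8 were liver-enriched, and their summed level was 177871 to 188260 CPM in the livers, against 10.9 to 52.3 CPM in hearts and 80 to 343.7 CPM in muscles. It was 2577 to 4646 CPM in aorta, 3422 to 5521 CPM in fat and up to 4126 CPM in hippocampus. The 2 that were not enriched are also made elsewhere. Ttr had 10426, 9423 and 10927 CPM in the 3 livers, and Ttr, the thyroxine and retinol carrier that the choroid plexus also makes, reached 4109 CPM in hippocampus library 1. Pck1, the first committed enzyme of gluconeogenesis and also a fat cell enzyme, had 5124 to 6571 CPM in the livers, against 3889 CPM in aorta library 1. Markers of heart and skeletal muscle, of the hypothalamus and of neurons were low in liver. Summed levels in the livers were 0.128 to 0.774 CPM for 10 cardiomyocyte markers, 1.41 to 2.45 CPM for 10 skeletal muscle markers, 0.129 to 0.279 CPM for 10 hypothalamic markers and 17 to 24.8 CPM for 10 neuron markers, most of the last from Syt1, a synaptic vesicle protein, at 14.4 to 22.6 CPM. Other lists were less specific: 10 astrocyte and oligodendrocyte markers summed to 1571 to 1728 CPM in the livers, with 4 of them higher and 6 lower, against 6975 to 9296 CPM in hippocampus, and 8 hippocampal markers summed to 266.3 to 318.7 CPM in the livers, against 471 to 578.3 CPM in hippocampus. Of 7 red blood cell markers, 4 were lower in liver and 1, the haem synthesis gene Alas2, was higher, and their sum was 367.1 to 403.3 CPM in livers, against 9639 to 14574 CPM in aortas. Summed levels of 10 smooth muscle markers were 83.4 to 90.4 CPM in livers and 659.4 to 1628 CPM in aortas. They were higher still in hearts, at 1728 to 1897 CPM, and in skeletal muscles, at 3378 to 6088 CPM, so these markers do not set aorta apart.

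Markers of other liver cell types were present at lower levels, and those of Kupffer cells differed between the 3 livers. The Kupffer cell markers summed to 214.9 to 764.7 CPM in livers, with the highest sum in liver 2. Their sum was 503.9 to 517.9 CPM in fat and 75.2 to 90.3 CPM in hypothalamus. Clec4f had 118.8, 174.9 and 69.1 CPM in the 3 livers, and the highest of the other 18 libraries held 2.25 CPM of Clec4f, a galactose-binding receptor of Kupffer cells (adjusted p = 8.57e-10). Marco had 5.39, 99.3 and 10.7 CPM in the 3 livers, and Marco, a scavenger receptor, did not exceed 4.7 CPM elsewhere. Liver 2 was the highest of the 3 for both genes and for Cd5l, Vsig4 and Timd4. Of the 10 Kupffer markers 6 were higher and 0 lower than the mean of the other tissues, but without liver 2 it was 5 and 3, without aorta library 2 it was 7 and 3, and without aorta library 1 or 3 it was 6 and 1. The 10 sinusoidal endothelial markers summed to 202.2 to 293.8 CPM in livers, 298.7 to 305.5 CPM in fat and 40.5 to 64.2 CPM in hippocampus. Of these 10 markers 8 were higher, among them Clec4g at 38.7 to 59.8 CPM in livers and at most 0.992 CPM elsewhere. Without aorta library 2 it was 8 higher and 2 lower, and without aorta library 1 or 3, heart library 3 or hypothalamus library 2 or 3 it was 8 and 1. Of 10 stellate cell markers 7 were higher and 3 lower: Colec10, a collectin, had 24.6 to 38 CPM in livers and at most 0.23 CPM elsewhere, while Pdgfrb, Des and Rgs5, which pericytes and muscle cells also express, were lower. The stellate sum was 259.3 to 338.4 CPM in livers, 3581 to 5681 CPM in skeletal muscles and 65.5 to 123 CPM in hypothalamus. By sum, the Kupffer, endothelial and stellate lists did not set liver apart from every other tissue. The 10 cholangiocyte markers summed to 110.1 to 125.5 CPM in livers, with Krt19 at 0.513 to 0.645 CPM. The sum was 24.1 to 43.9 CPM in hearts and 204.7 to 240.9 CPM in skeletal muscles. Of 8 tested cholangiocyte markers 4 were higher and 0 lower, or 1 lower without aorta library 1 or 2, fat library 2 or heart library 3. Of 8 tested lymphocyte markers 1 was higher, Nkg7, and 7 were not called; without liver 2 none was higher and without muscle library 1 there were 2.

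Some libraries of other tissues held liver transcripts. Over the 50 liver-enriched genes of highest level, the median level as a percent of the mean liver level was 0.766 in epididymal fat library 2, 0.121 in fat library 1 and 0.127 in skeletal muscle library 1. In the other 15 libraries it lay between 0.000988 and 0.0251. Muscle library 1 was also the one with the pancreatic transcripts Prss2 at 8.81 CPM and Ctrb1 at 8.44 CPM, which had 0 counts in every liver. The fat cell markers summed to 5219 to 6648 CPM in livers, most of that from Pck1, against 23482 to 34070 CPM in aorta and 26855 to 36645 CPM in epididymal fat. The part of these transcripts in the results was not tested, except where values without a library are given. Leaving out fat library 2 moved the median log2 difference between a liver-enriched gene and its nearest tissue to 4.8, against 4.76 with all libraries, over the 1021 enriched genes. Leaving out muscle library 1 raised the fitted difference of gene Alb to 16.05, against 15.38 with all libraries, and moved 28 of the genes named by rule by over 1.5-fold.

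**Figure D1:**
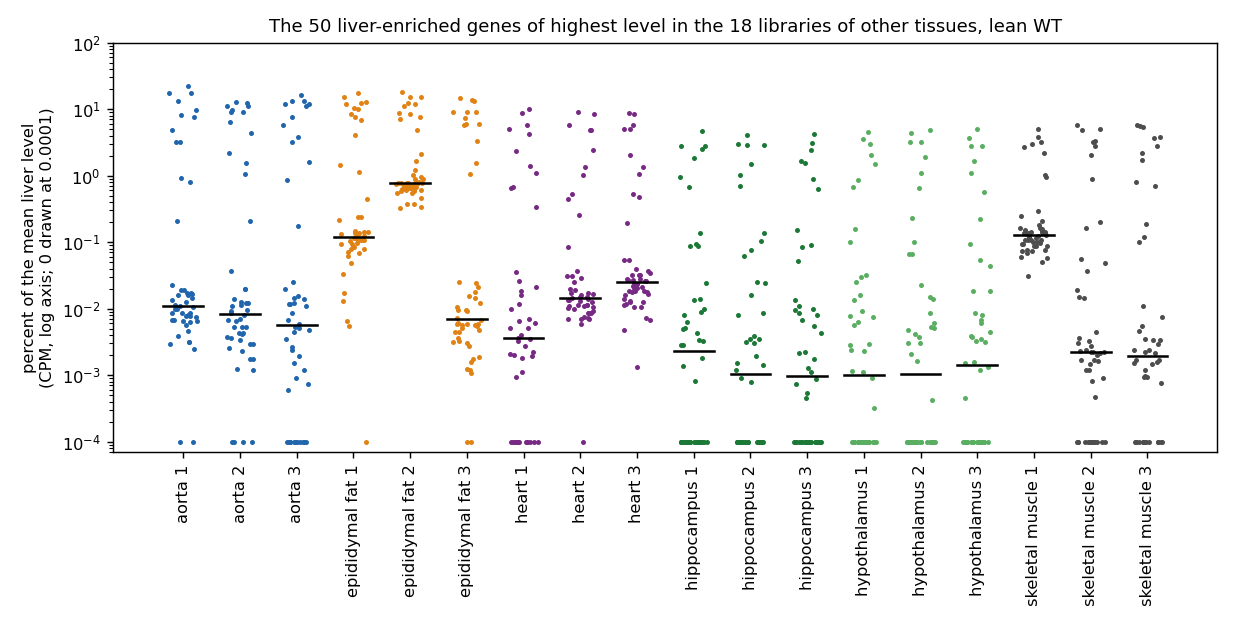
Levels of 50 liver-enriched genes in each of the 18 libraries of other tissues, as a percent of the mean liver level (log axis); points are genes, the line is their median, and genes without counts are drawn at 0.0001 percent. Epididymal fat library 2 has the highest median, 0.766 percent, and muscle library 1 stands at 0.127 percent, while the other 2 muscle libraries stand near 0.002 percent.

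Across all genes, liver differed from the mean of the other tissues at 12593 of 18529, or 68 percent, with 5979 higher (32.3 percent) and 6614 lower (35.7 percent). These calls are relative to a median of all genes of -0.29. Scaling by total counts alone moved that median by -0.83, to -1.12, and the split to 3088 higher and 10897 lower, so that 22.1 percent of called genes were higher, against 47.5 percent here. Without aorta library 2 the split was 5272 and 7506. The liver-enriched and liver-low genes, which ask for a 4-fold difference from each tissue, numbered 1021 (5.51 percent) and 1272 (6.86 percent). With 0 counts in 1 or more of the 6 tissues, which held for 2379 genes, 0 were called lower than the mean, while limma's voom fit, tried after the data were seen, called 1333 of these lower; the count of lower genes is therefore one for genes present in all 6 tissues.

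Taken tissue by tissue, liver was nearest to aorta and fat by correlation, and farthest from brain. Liver libraries correlated with each other at Spearman's rho of 0.986 to 0.987 across genes, with fat libraries at 0.7 to 0.775, with aorta at 0.719 to 0.75, with heart at 0.678 to 0.697, with muscle at 0.655 to 0.684, with hippocampus at 0.476 to 0.486 and with hypothalamus at 0.463 to 0.486, as a description over genes that are not independent. Without fat library 2, which held the most liver transcripts, the range with fat was 0.7 to 0.742. Against aorta, 5265 genes were higher in liver (28.4 percent of those tested) and 6644 lower (35.9 percent), with 1807 at least 4-fold higher (9.75 percent) and 3799 at least 4-fold lower (20.5 percent). Against epididymal fat it was 6031 higher (32.5 percent) and 6336 lower (34.2 percent), with 1916 (10.3 percent) and 3968 (21.4 percent) at 4-fold. Heart gave 5497 higher (29.7 percent) and 6497 lower (35.1 percent), with 2187 (11.8 percent) and 3713 (20.0 percent) at 4-fold. That was the smallest count of 4-fold lower genes of any tissue, so by this count the order differed from that of the correlations. Skeletal muscle gave 5255 higher (28.4 percent) and 7333 lower (39.6 percent), with 2358 (12.7 percent) and 3885 (21 percent) at 4-fold. Both brain regions had more of each kind. Hippocampus gave 6620 higher (35.7 percent) and 7656 lower (41.3 percent), with 2831 (15.3 percent) and 5144 (27.8 percent) at 4-fold, and hypothalamus gave 6690 higher (36.1 percent) and 7710 lower (41.6 percent), with 2864 (15.5 percent) and 5232 (28.2 percent) at 4-fold. In every pairing the 4-fold lower genes outnumbered the 4-fold higher ones.

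**Figure D2:**
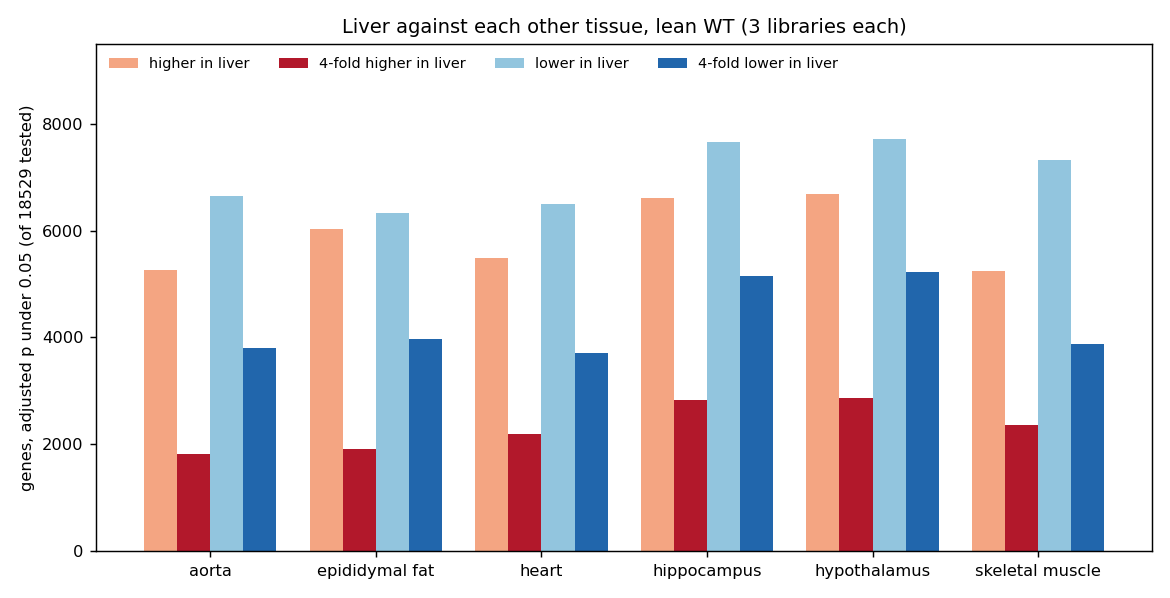
Number of genes higher or lower in liver than in each other tissue, past an adjusted p of 0.05, with and without a 4-fold minimum. Bars for hippocampus and hypothalamus are the tallest in both directions, with 5144 and 5232 genes at least 4-fold lower in liver.

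Of the 1021 liver-enriched genes, 881 were protein coding, 591 were at least 16-fold and 431 at least 64-fold above every other tissue, and 408 had 0 counts in 1 or more of the other tissues. The gene closest to the threshold had a log2 difference of 2.004 to its nearest tissue. Together the enriched genes made up 54.4 to 54.5 percent of liver transcripts by TPM, against 3.38 to 4.2 percent in fat, 1.38 to 1.54 percent in aorta, 1.14 to 1.22 percent in hippocampus, 1.31 to 1.49 percent in hypothalamus, 0.543 to 0.562 percent in heart and 0.523 to 0.593 percent in muscle. The rule chose the genes for their high level in liver, so these shares are a description. The next-highest tissue was fat for 516 of them (50.5 percent), aorta for 162, hypothalamus for 101, hippocampus for 83, muscle for 80 and heart for 79. Without fat library 2, fat was next for 364 (35.7 percent), aorta for 205, muscle for 143, hypothalamus for 121, hippocampus for 96 and heart for 92.

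The 12 liver-enriched genes of highest level code for plasma proteins, apolipoproteins, a fatty acid carrier, 2 cytochrome P450 enzymes and a pheromone carrier. Albumin (Alb, ENSMUSG00000029368; chromosome 5, 90460897 to 90476602), the main protein of plasma, stood first. Alb had 130276, 127494 and 136106 CPM in the 3 livers, and the other 18 libraries held 0 to 1012 CPM with a median of 4.14 CPM. Every liver was far above every other library, of which fat library 2 was the highest. The liver mean of Alb was 332.6 times the mean of epididymal fat and 1528 times that of the next tissue, epididymal fat, without fat library 2 (adjusted p = 1.96e-10). Its TPM, 72763 on average, was the highest of any gene in liver, ahead of the mitochondrial gene mt-Co1 at 36866 TPM and of Apoa2, a protein of high-density lipoprotein, at 30931 TPM.

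Apolipoproteins and carriers followed. Apoe had 22924, 21140.3 and 23028 CPM in the 3 livers, against 200.7 to 3363 CPM (median 932.9) in the other libraries, and Apoe, the ligand by which lipoprotein remnants are taken up, was thus the member most shared with other tissues. Its difference was 4.68 ± 0.16, adjusted p = 1.69e-15, and the liver mean was 7.19 times the mean of epididymal fat. Apob had 12599, 12322 and 12487 CPM in the 3 livers, against 0 to 75.3 CPM (median 0.0853) in the other libraries. Apob is the structural protein of very-low-density lipoprotein, and the liver mean was 400.1 times the mean of epididymal fat and 1372 times that of the next tissue, epididymal fat, without fat library 2. Apoa1 had 11086, 10219 and 9324 CPM in the 3 livers, against 0.095 to 98.5 CPM (median 0.406) in the other libraries. For Apoa1, the main protein of high-density lipoprotein, the liver mean was 275.9 times the mean of epididymal fat and 1419.7 times that of the next tissue, skeletal muscle, without fat library 2. That muscle mean of Apoa1 rested on muscle library 1, at 0.208 percent of the liver mean, against 0.00273 and 0.000931 percent in muscle libraries 2 and 3. Fabp1 had 10788, 11545 and 11891 CPM in the 3 livers, against 0 to 69.5 CPM (median 0.141) in the other libraries. The carrier of fatty acids in hepatocytes, Fabp1, followed Apoa2 among enriched genes by TPM, at 26799 TPM, and the liver mean was 430.6 times the mean of epididymal fat and 2118 times that of the next tissue, skeletal muscle, without fat library 2. Muscle library 1 again held most of it, at 0.139 percent of the liver mean of Fabp1, against 0.000814 and 0.00167 percent in muscle libraries 2 and 3. For each of these 4 genes every liver was above every other library, and fat library 2 was the highest of the others.

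Cyp2e1 had 15036, 14100.1 and 16549 CPM in the 3 livers, against 0 to 1557 CPM (median 15) in the other libraries. Cyp2e1, which oxidises ethanol and small solvents, was the one whose highest level outside liver was in fat library 1, and the liver mean was 11.8 times the mean of epididymal fat. Cyp3a11 had 11186, 10318 and 14602 CPM in the 3 livers, against 0 to 45.3 CPM (median 0.131) in the other libraries. Cyp3a11 is a main drug-oxidising P450, and the liver mean was 721.9 times the mean of epididymal fat and 4850.5 times that of the next tissue, skeletal muscle, without fat library 2. That muscle mean of Cyp3a11 rested on muscle library 1, at 0.0595 percent of the liver mean, against 0 and 0.00237 percent in muscle libraries 2 and 3. Apoa2 had 13471, 12235 and 12729 CPM in the 3 livers, against 0.38 to 81.8 CPM (median 1.06) in the other libraries. Serpina3k had 22716, 20735 and 15854 CPM in the 3 livers, against 0 to 130 CPM (median 0.383) in the other libraries. Serpina3k codes for a plasma protease inhibitor, and its exons overlap those of Serpina3m, so that reads in the overlap cannot be assigned. Mup3 had 24804, 18346 and 17058 CPM in the 3 livers, against 0 to 109.2 CPM (median 0.399) in the other libraries, with the highest level in liver 1. The major urinary protein Mup3 carries pheromones into urine, and the liver mean was 535.5 times the mean of epididymal fat and 2109 times that of the next tissue, skeletal muscle, without fat library 2, or 7388 times that of aorta without muscle library 1 as well. Ahsg had 11929, 10191 and 11638 CPM in the 3 livers, against 0 to 74.8 CPM (median 1.07) in the other libraries, for fetuin-A, a plasma inhibitor of calcification. Gc had 11022, 9750.1 and 10249.5 CPM in the 3 livers, against 0 to 79.3 CPM (median 0.233) in the other libraries, for the vitamin D carrier. In all 12 genes the livers did not overlap the other 18 libraries, which follows largely from the rule that chose them.

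**Figure D3:**
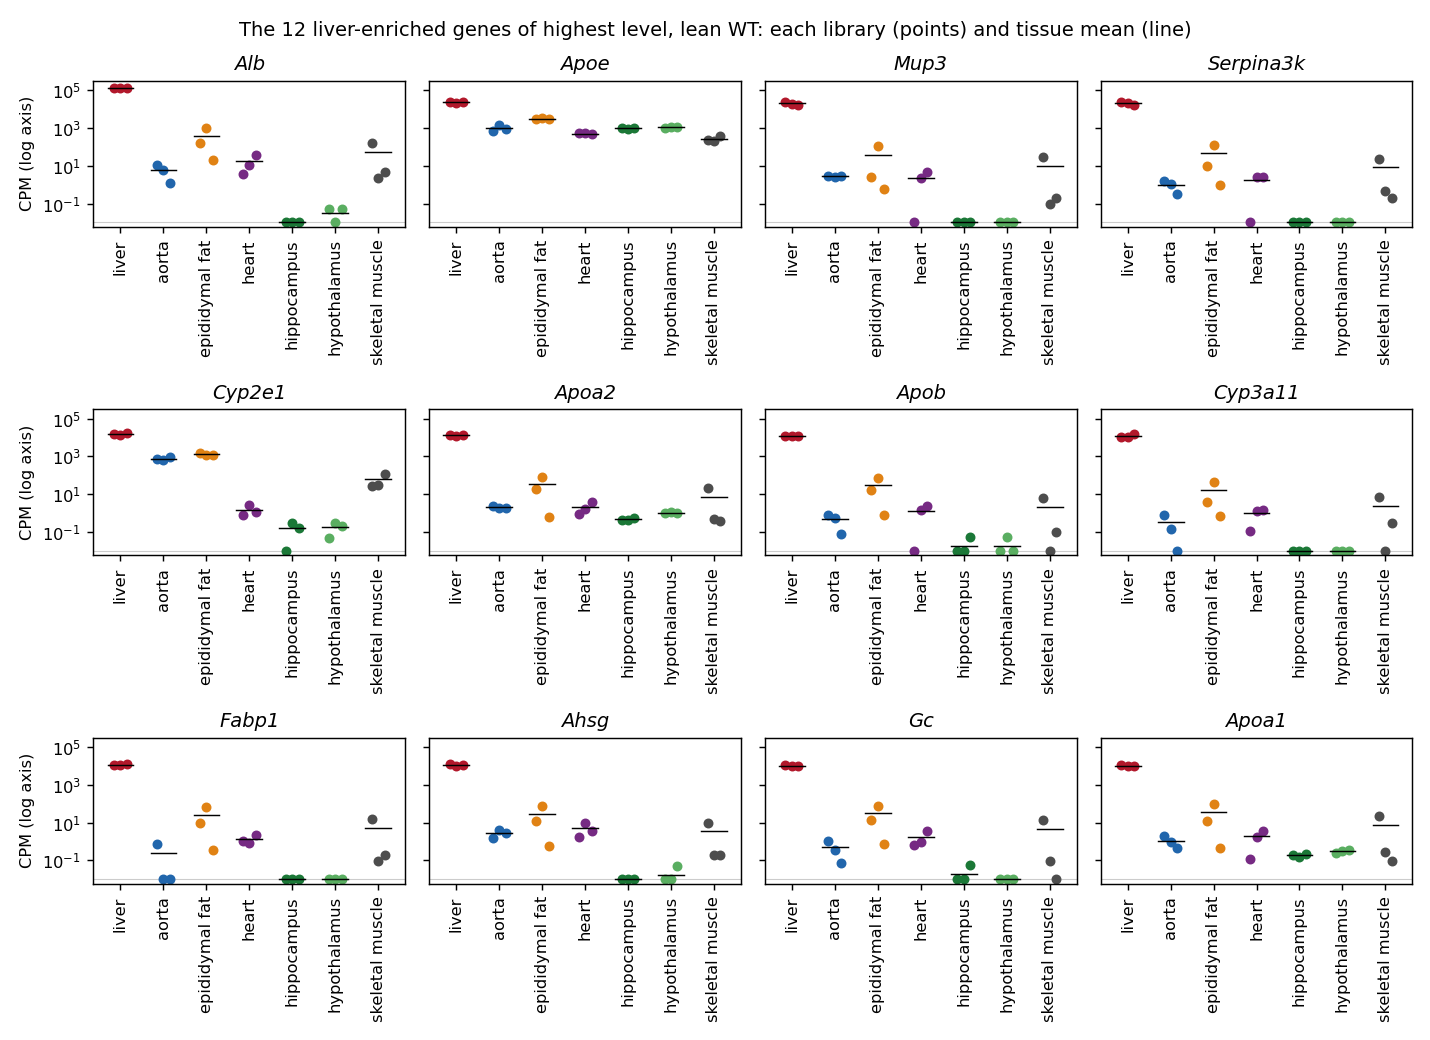
CPM (log axis) of the 12 liver-enriched genes of highest level in each of the 21 libraries, liver at the left; points are libraries, lines are tissue means, and 0 is drawn at 0.01 CPM. Liver points lie together, the lowest at 9324 CPM of Apoa1, while fat library 2 and, for several genes, muscle library 1 stand above the other libraries of their tissue.

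By largest fitted difference among enriched genes of at least 10 CPM, the leading 10 were Alb, Cyp3a11, Mup7, Serpina3k, Fabp1, Cyp2c29, Mup3, Mup12, Cyp2c50 and Apob. Cyp2c29 had 4881, 3669 and 5514 CPM in the 3 livers, against 0 to 15.9 CPM (median 0) in the other libraries, and Cyp2c29, an arachidonic acid epoxygenase, was 839.2 times the mean of epididymal fat and 2786 times that of the next tissue, skeletal muscle, without fat library 2, or 10958 times that of epididymal fat without muscle library 1 as well. Mup7 had 11709, 8113 and 5381 CPM in the 3 livers, against 0 to 27.9 CPM (median 0) in the other libraries. Mup12 had 698.7, 592.7 and 390.9 CPM in the 3 livers, against 0 to 1.24 CPM (median 0) in the other libraries. The 3 livers differed by up to 2.18 times in Mup7, with liver 1 the highest. Mup genes are near-identical copies on chromosome 4, so reads that match several of them were not counted, and values of single Mup genes are uncertain.

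Proteins that the liver secretes into plasma were higher with 1 exception. Among all tested genes, the background for this and the other lists, 32.3 percent were higher, 35.7 percent lower and 5.51 percent liver-enriched. Of 29 plasma proteins, all tested, 28 were higher, 0 were lower and 26 were liver-enriched, with a median log2 difference of 12.66 (12.31 with the floor, 13.36 without muscle library 1), against -0.29 over all genes. The 1 not called, A2m, had 0 to 0.128 CPM in livers and up to 17.7 CPM in hypothalamus; in mice its relative Pzp is the liver form of this protease inhibitor. Pzp had 7924, 7777 and 7991 CPM in the 3 livers, against 0 to 54.4 CPM (median 0.531) in the other libraries. Cp had 2358, 2189 and 2162 CPM in the 3 livers, against 9.16 to 209 CPM (median 45) in the other libraries, and ceruloplasmin, a copper-carrying ferroxidase, differed by 5.66 ± 0.11, adjusted p = 2.57e-19. Trf had 1306, 1266 and 1358 CPM in the 3 livers, against 4.52 to 206.8 CPM (median 18.8) in the other libraries, and the iron carrier transferrin differed by 5.87 ± 0.14, adjusted p = 8.4e-18. Agt had 911.5, 861.2 and 921.7 CPM in the 3 livers, against 0.378 to 266.5 CPM (median 23.7) in the other libraries: angiotensinogen, the source of angiotensin, differed by 5.50 ± 0.15, adjusted p = 3.93e-17 and was just outside the enriched group, being 3.90 times the fat level. Rbp4 had 5288, 4701 and 4915 CPM in the 3 livers, and retinol-binding protein differed by 8.17 ± 0.26, adjusted p = 5.26e-16 and was highest outside liver in fat library 2 at 556.1 CPM. For all 5 genes the lowest liver was above the highest other library.

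Most coagulation factors were higher in liver, and a smaller number of the list were lower. Of 29 coagulation genes 22 were higher, 20 of them enriched, and 7 lower, with a median difference of 11.05 (10.44 with the floor). Fgb had 7886, 8264 and 6985 CPM in the 3 livers, against 0 to 53.3 CPM (median 0.187) in the other libraries, for a fibrinogen chain; the other 2 chains, Fga and Fgg, had 5184 to 5999 and 5139 to 5711 CPM in livers. F2 had 3225, 3126 and 3113 CPM in the 3 livers, against 0 to 23.5 CPM (median 0.0378) in the other libraries, for prothrombin. F9 had 504, 447.8 and 432.5 CPM in the 3 livers, against 0 to 2.96 CPM (median 0.17) in the other libraries, for the clotting factor missing in a form of haemophilia. Proz had 684.4, 559.6 and 621.1 CPM in the 3 livers, against 0.441 to 11.2 CPM (median 1.4) in the other libraries, and protein Z, a cofactor that restrains factor X, differed by 8.01 ± 0.18, adjusted p = 4.04e-18, with its next-highest level in hippocampus. Among the lower genes were F3 (tissue factor), Vwf (von Willebrand factor), Thbd (thrombomodulin), Tfpi, Plat and Plau. Vwf had 2.44, 3.61 and 3.48 CPM in the 3 livers, against 5.58 to 154.7 CPM (median 33.8) in the other libraries, a difference of -3.23 ± 0.31, adjusted p = 1.73e-08. Plat had 0.385, 0.129 and 0.696 CPM in the 3 livers, against 12.5 to 61.5 CPM (median 30.6) in the other libraries, and the plasminogen activator gene Plat was liver-low (difference -6.26 ± 0.38, adjusted p = 1.12e-11). The clotting factor F8, which liver endothelium is known to make, was higher at 11.7 to 18.3 CPM in livers and at most 5.91 CPM elsewhere. Among the genes given by liver, all 3 livers lay above the other 18 libraries for Fgb, F2, F9 and Proz and below them for Vwf and Plat.

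Most complement genes were higher in liver. Of 25 listed, 24 were tested, 19 were higher, 0 lower and 13 enriched, with a median difference of 6.23 (6.25 with the floor). Among the enriched were Hc (component 5), C6, C8a, C8b, C8g and C9, which act in the terminal pathway, and Mbl1, Mbl2, Masp1 and Masp2, which act in the lectin pathway. C9 had 1078, 1153 and 906.3 CPM in the 3 livers, against 0 to 6.21 CPM (median 0) in the other libraries. C8g had 792.6, 783.9 and 772.6 CPM in the 3 livers, against 0.968 to 13.8 CPM (median 3.42) in the other libraries, a difference of 7.78 ± 0.16, adjusted p = 1.11e-18. C3 had 10372, 9774 and 9424 CPM in the 3 livers, against 0.784 to 5601 CPM (median 251) in the other libraries; C3, the central component, was higher than the mean by 6.51 ± 0.32, adjusted p = 4.29e-13, yet aorta library 2 reached 5601 CPM. The macrophage-made C1q chains were not called: C1qa had 21 to 66 CPM in livers and 23.1 to 226.1 CPM elsewhere (difference -0.68 ± 0.32, adjusted p = 0.0696), and C1qb and C1qc also overlapped the other tissues. Without liver 2, which held the most of them, 2 complement genes were called lower, and 1 without any 1 of the 3 aorta libraries. Cfd (adipsin) was not called either (adjusted p = 0.677), with 2.51 to 5.8 CPM in livers, against up to 4935 CPM in fat library 2 and 0 counts in some other libraries. The livers lay above all other libraries for C9, C8g and C3.

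Most acute-phase genes were higher in liver. Of 18 genes 17 were higher and 12 enriched, with a median of 8.50 (7.80 with the floor). Hp had 3422, 4025 and 3438 CPM in the 3 livers, against 0.147 to 2629.5 CPM (median 24.8) in the other libraries, and haptoglobin, which binds free haemoglobin, was higher by 7.37 ± 0.28, adjusted p = 7.31e-15 but 1.48 times the fat mean. Saa1 had 38.7, 57.7 and 31.8 CPM in the 3 livers, against 0 to 0.38 CPM (median 0.115) in the other libraries. Fgl1 had 362.7, 550.1 and 319.6 CPM in the 3 livers, against 0.0928 to 4.85 CPM (median 0.669) in the other libraries, and the fibrinogen-like factor Fgl1 differed by 9.03 ± 0.22, adjusted p = 1.1e-17. Serum amyloid Saa3 did not pass (difference 2.07 ± 1.44, adjusted p = 0.222): it had 3.48 to 5.93 CPM in livers and up to 426 CPM in aorta library 2. Lipocalin Lcn2 was low in liver, at 0.836 to 4.51 CPM, and overlapped the other libraries. Orm1, an orosomucoid, had 772.6 to 1059 CPM in livers, against up to 186.8 CPM in fat library 1. Each liver exceeded all other libraries for Hp, Saa1 and Fgl1.

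Lipoprotein genes were higher in 24 of 25 tested (of 26 listed), and 19 were enriched, with a median of 10.14 (9.10 with the floor). Mttp had 844.3, 784.2 and 821.5 CPM in the 3 livers, against 4.4 to 18.9 CPM (median 7.26) in the other libraries, and the protein that loads lipid onto Apob differed by 6.65 ± 0.13, adjusted p = 3.42e-19, the next tissue being hypothalamus. Lcat had 701.4, 641.5 and 655.1 CPM in the 3 livers, against 0.226 to 21 CPM (median 1.31) in the other libraries, for the enzyme that esterifies cholesterol in plasma (difference 8.22 ± 0.21, adjusted p = 2.67e-17). Lpl, the lipase that unloads triglyceride in fat and muscle, was the lower gene. Lpl had 16.5, 20.1 and 8.77 CPM in the 3 livers, against 3.14 to 8520.1 CPM (median 2139.8) in the other libraries, a difference of -4.94 ± 0.48, adjusted p = 1.86e-08. Angptl8 had 43, 51.2 and 156.4 CPM in the 3 livers, with liver 3 above the other livers, for a secreted inhibitor of that lipase which was higher but not enriched, with 36.6 CPM in aorta library 3. The livers did not overlap the other libraries for Mttp, Lcat and Angptl8, and overlapped them for Lpl.

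**Figure D4:**
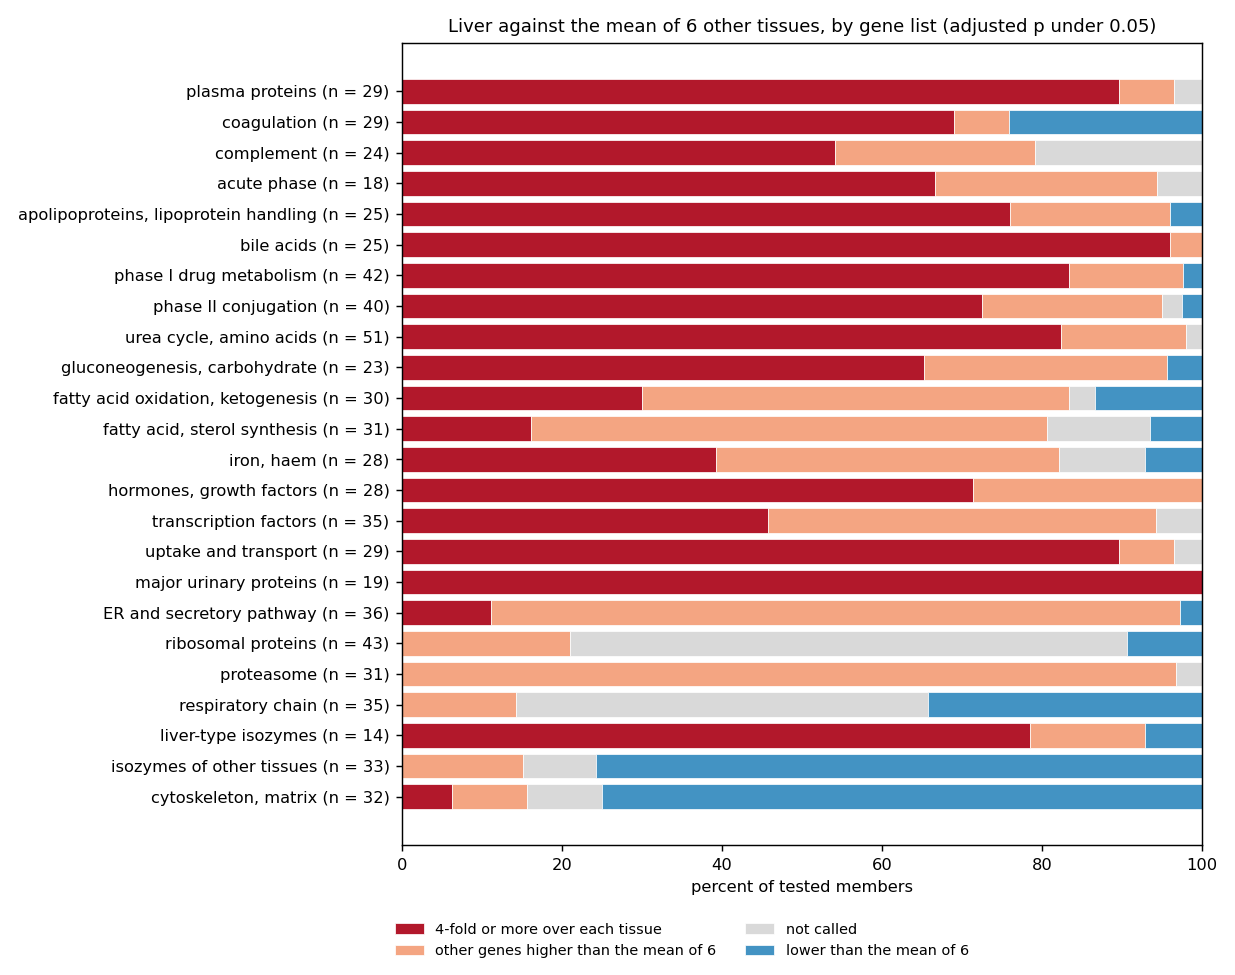
Share of the tested members of each gene list that were liver-enriched, higher without being enriched, not called, or lower in liver, in percent (bars are stacked; n is the number tested). Plasma proteins, bile acid genes and major urinary proteins are almost all enriched, whereas ribosomal and respiratory chain genes are mostly not called and isozymes of other tissues mostly lower.

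Bile acid synthesis and transport genes were higher as a whole. All 25 tested of 26 listed were higher and 24 enriched, with a median of 11.56 (10.64 with the floor); Hsd3b7 had too few counts to test. Cyp7a1 had 150.7, 182.4 and 119.6 CPM in the 3 livers, against 0 to 0.591 CPM (median 0) in the other libraries, for the rate-limiting enzyme of the classic pathway. Cyp8b1 had 887.5, 786.1 and 820.5 CPM in the 3 livers, against 0 to 5.67 CPM (median 0.173) in the other libraries, for the sterol hydroxylase that leads to cholic acid. Cyp27a1 had 838.8, 738.1 and 700.2 CPM in the 3 livers, against 3.36 to 228.2 CPM (median 36.1) in the other libraries, and Cyp27a1, which starts the acidic pathway, differed by 4.81 ± 0.13, adjusted p = 4.76e-17, with its highest other level in muscle library 1. On the transport side, Abcb11 had 1014, 1059 and 1028 CPM in the 3 livers, against 0 to 5.91 CPM (median 0) in the other libraries, for the bile salt export pump. Slc10a1 had 1308, 997.8 and 1044 CPM in the 3 livers, against 0 to 7.33 CPM (median 0.144) in the other libraries, for the carrier that takes bile acids up from blood. Nr1h4 had 237.2, 256.3 and 249.1 CPM in the 3 livers, against 0 to 4.51 CPM (median 0.787) in the other libraries, for the bile acid receptor FXR. The co-receptor Klb was higher but not enriched, with 59.2 to 79 CPM in livers and 52.2 CPM in aorta library 1. For each of the 6 genes given by liver, every liver lay above every other library.

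Enzymes of drug and hormone metabolism were nearly as restricted. Of 43 phase 1 genes 42 were tested, 41 were higher and 35 enriched, with a median of 12.64 (11.40 with the floor, 13.23 without muscle library 1). Fmo5 had 1359, 1496 and 1240.4 CPM in the 3 livers, against 3.47 to 63.6 CPM (median 17.9) in the other libraries, and this flavin monooxygenase differed by 6.61 ± 0.10, adjusted p = 3.37e-20. Cyp1a2 had 886.1, 860.3 and 979.5 CPM in the 3 livers, against 0 to 5.73 CPM (median 0.023) in the other libraries. Cyp2a5 had 736.5, 445.1 and 1002 CPM in the 3 livers, with liver 3 the highest and liver 2 the lowest, against 0 to 2.84 CPM (median 0) in the other libraries. The lower member was Cyp1b1, an extrahepatic P450, at 0.279 to 0.641 CPM in livers and 1.48 to 54.6 CPM elsewhere (difference -4.62 ± 0.53, adjusted p = 1.78e-07). Of 41 conjugating, or phase 2, genes 40 were tested, 38 were higher, 29 enriched and 1 lower, with a median of 8.16 (5.95 with the floor). Gsta3 had 3269, 3196 and 3419 CPM in the 3 livers, against 0.224 to 158.3 CPM (median 10.4) in the other libraries, and this glutathione transferase differed by 8.86 ± 0.20, adjusted p = 4.06e-18. Ugt2b36 had 1935, 2025 and 2134 CPM in the 3 livers, against 0 to 8.93 CPM (median 0) in the other libraries. Ugt1a1 had 198, 192.8 and 193.7 CPM in the 3 livers, against 0 to 1.6 CPM (median 0) in the other libraries, for the enzyme that conjugates bilirubin; Ugt1a genes share exons, so their reads overlap. Within the glutathione transferases the exception was Gstm5, lower at 12.1 to 13.3 CPM in livers and 23.7 to 173.4 CPM elsewhere (difference -2.56 ± 0.15, adjusted p = 8.2e-12), while Gstp2 was not called. No other library reached the livers for Fmo5, Cyp1a2, Cyp2a5, Gsta3, Ugt2b36 and Ugt1a1.

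Nitrogen and amino acid metabolism accounted for the largest count of enriched genes in 1 list, 42 of 51, with 50 higher, 0 lower and a median of 8.42 (8.44 with the floor). The urea cycle genes were all among them. Cps1 had 6093, 4913 and 4218 CPM in the 3 livers, against 0 to 28.2 CPM (median 0.305) in the other libraries, for the enzyme that captures ammonia. Otc had 1228, 1033 and 1054 CPM in the 3 livers, against 0 to 6.8 CPM (median 0.074) in the other libraries, for the next step. Ass1 had 2181, 2027 and 1979 CPM in the 3 livers, against 3.52 to 46.8 CPM (median 5.17) in the other libraries, for the step after it. Asl had 850.4, 665.5 and 655.1 CPM in the 3 livers, against 6 to 27.4 CPM (median 12.4) in the other libraries, a difference of 5.93 ± 0.11, adjusted p = 1.66e-19. Slc25a15 had 542.3, 633.2 and 552.7 CPM in the 3 livers, against 8.36 to 18.2 CPM (median 12.4) in the other libraries, and the mitochondrial ornithine carrier differed by 5.54 ± 0.09, adjusted p = 8.43e-20. Enzymes that break down amino acids behaved likewise. Hpd had 2803, 2594 and 2590.3 CPM in the 3 livers, against 0 to 21.2 CPM (median 0.167) in the other libraries, for a step of tyrosine breakdown. Tdo2 had 3695, 3940.4 and 3687 CPM in the 3 livers, against 0.226 to 23.2 CPM (median 0.673) in the other libraries, for the first step of tryptophan breakdown. Hal had 497.9, 407.7 and 413.9 CPM in the 3 livers, against 0 to 5.38 CPM (median 0.103) in the other libraries, for that of histidine. The 1 gene not called was Glul, glutamine synthetase, which astrocytes and muscle also use. Glul had 926.6, 1012 and 994.3 CPM in the 3 livers, against 301.8 to 1595 CPM (median 887.8) in the other libraries, with a difference of 0.31 ± 0.19, adjusted p = 0.153. Except for Glul, the livers overlapped no other library for the genes given by liver.

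Of 23 genes of gluconeogenesis and sugar handling 22 were higher and 15 enriched, with a median of 5.62 (5.62 with the floor). G6pc had 1099, 1113 and 1874 CPM in the 3 livers, with liver 3 the highest, against 0 to 10.9 CPM (median 0.028) in the other libraries, for the phosphatase that releases glucose. Tkfc had 850.9, 738.1 and 832.3 CPM in the 3 livers, against 3.16 to 23.1 CPM (median 7.3) in the other libraries, and this kinase of fructose breakdown differed by 6.66 ± 0.10, adjusted p = 3.37e-20. Gcgr had 319.6, 324.4 and 328.5 CPM in the 3 livers, against 0 to 4.37 CPM (median 0.112) in the other libraries, for the glucagon receptor. Khk had 725.9, 668.4 and 659.1 CPM in the 3 livers, against 6.98 to 29.6 CPM (median 14) in the other libraries, and the fructose kinase differed by 5.62 ± 0.12, adjusted p = 2.5e-18. The coactivator Ppargc1a, abundant in oxidative tissues, was the lower one, at 10.7 to 14.8 CPM in livers, against 1.49 to 178.4 CPM elsewhere (difference -1.40 ± 0.25, adjusted p = 4.38e-05). For G6pc, Tkfc, Gcgr and Khk the livers stood above all other libraries, and for Ppargc1a within their range.

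Many enzymes exist as a liver form and a form of other tissues, and the forms divided along that line. Of 14 liver isozymes and transporters 13 were higher, 11 of them enriched, and 1 lower; of 33 tested counterparts 25 were lower, 13 of them liver-low, 5 higher and 3 not called. The medians were 8.40 for liver forms (8.45 with the floor) and -4.76 for the others (-4.77 with the floor). The hexokinases Hk1 and Hk2, which phosphorylate glucose in most other tissues, stood at 0.385 and 0.153 TPM in liver. Hk1 had 2.18, 3.87 and 1.53 CPM in the 3 livers, against 7.07 to 259.4 CPM (median 59.5) in the other libraries (difference -4.50 ± 0.24, adjusted p = 2.23e-12). Hk2 had 0.77, 0.516 and 0.836 CPM in the 3 livers, against 2.25 to 286.7 CPM (median 98.5) in the other libraries. For glucose transport Slc2a2 (GLUT2) reached 122.6 TPM in liver and the insulin-regulated Slc2a4 (GLUT4) 0.0973 TPM. Slc2a4 had 0.257, 0.387 and 0.139 CPM in the 3 livers, against 0.737 to 760.4 CPM (median 160.3) in the other libraries, a difference of -7.39 ± 0.32, adjusted p = 5.55e-14. Livers and other libraries did not overlap, the livers being below for Hk1, Hk2 and Slc2a4.

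Pyruvate kinase showed the same division, and the muscle aldolase was lower. Aldoa had 124.3, 126.9 and 115.3 CPM in the 3 livers, against 649.9 to 30574 CPM (median 1492) in the other libraries, for the muscle form (difference -4.09 ± 0.29, adjusted p = 1.48e-10). Pklr had 309.3, 213.6 and 244.1 CPM in the 3 livers, against 0 to 2.01 CPM (median 0.028) in the other libraries, for the liver and red cell pyruvate kinase. Pkm had 9.75, 15 and 8.22 CPM in the 3 livers, against 230.2 to 5032 CPM (median 927.2) in the other libraries, for the form of most other tissues (difference -6.48 ± 0.29, adjusted p = 9.69e-14). Gls2 had 419.1, 357.8 and 404.4 CPM in the 3 livers, against 0 to 20.7 CPM (median 0.741) in the other libraries, for liver glutaminase (difference 7.81 ± 0.25, adjusted p = 4.16e-16). Mat1a had 6620.2, 6213 and 5803 CPM in the 3 livers, against 0 to 48.8 CPM (median 0.234) in the other libraries. It codes for the liver enzyme that makes S-adenosylmethionine. Its counterpart Mat2a did not differ past the threshold (difference -0.19 ± 0.27, adjusted p = 0.581) and had few counts in every library, at 0.905 to 5.23 CPM outside liver. Genes that overlap others or have near-identical copies can lose reads in these counts, and whether Mat2a did was not tested. The livers lay above all other libraries for Pklr, Gls2 and Mat1a and below them for Aldoa and Pkm.

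Some forms departed from this pattern. Pfkl, named the liver phosphofructokinase, was lower in liver. Pfkl had 48, 49.7 and 51.7 CPM in the 3 livers, against 9.36 to 612.4 CPM (median 92.9) in the other libraries, a difference of -0.78 ± 0.17, adjusted p = 0.000361. Glycogen phosphorylase Pygl and glycogen synthase Gys2 were higher than the mean but not enriched, by the 4-fold rule. Pygl had 954.9 to 1052 CPM in livers, against 722.2 CPM in aorta library 1. Gys2 had 244.8 to 301.9 CPM in livers, against 123.4 CPM in aorta library 1. Ldha, Eno1, Pgam1, Hk3 and Aldoc, all in the list of other tissues, were higher in liver. Ldha had 1918, 2183 and 2136 CPM in the 3 livers, against 117.3 to 5589 CPM (median 707.6) in the other libraries, a difference of 1.63 ± 0.16, adjusted p = 1.63e-08. Eno1 (0.83) and Pgam1 (0.60) had differences that turned to -0.01 and -0.24 when libraries were scaled by total counts, and Aldoc (0.77) to -0.09. Without liver 1, 3 of the list were higher in place of 5, and scaled by total counts 1 was higher and 26 lower. The ketone-using enzyme Oxct1 was liver-low. Oxct1 had 3.46, 4.9 and 3.34 CPM in the 3 livers, against 206.9 to 1419.9 CPM (median 324.8) in the other libraries (difference -6.74 ± 0.31, adjusted p = 1.85e-13). Ckm, the muscle creatine kinase, had 0 counts in all 3 livers and up to 37138 CPM in muscle library 1.

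**Figure D5:**
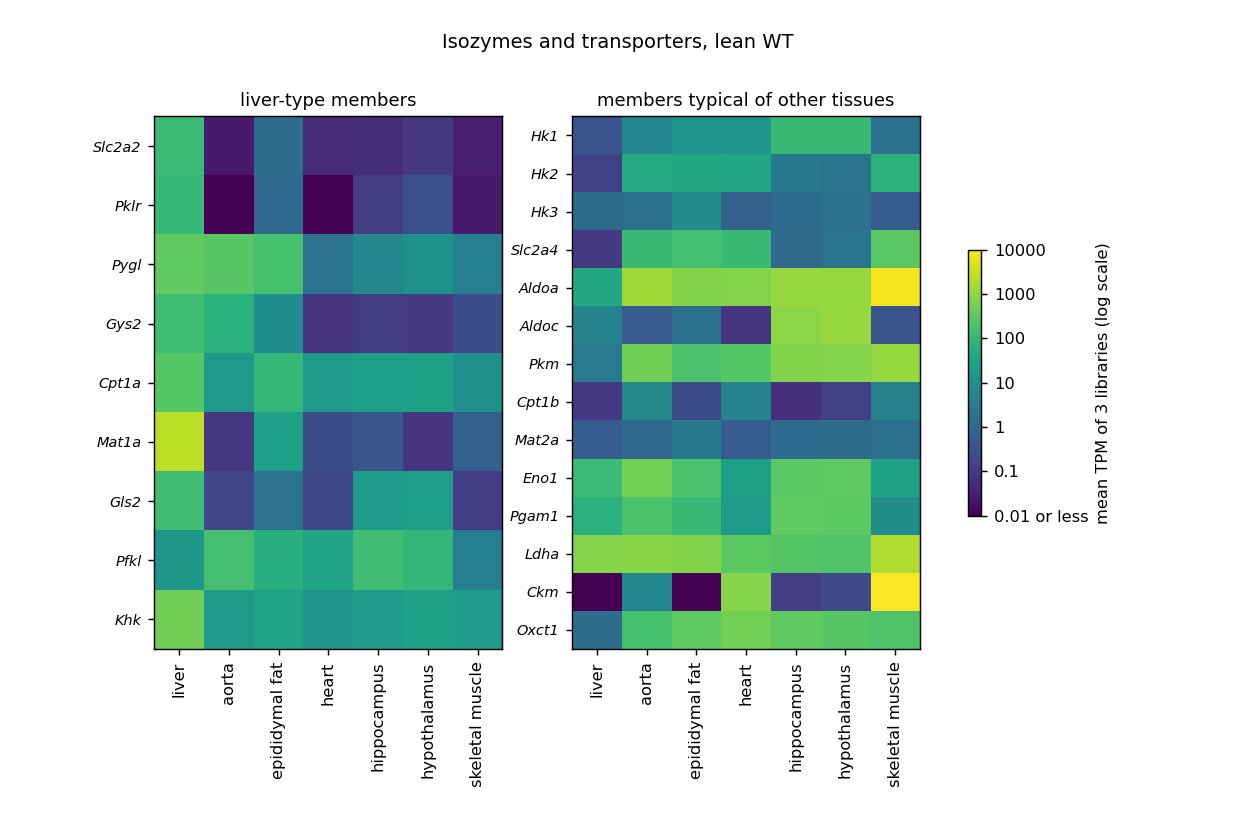
Mean TPM over 3 libraries (log colour scale) of the isozymes and transporters named in the text, liver forms in one panel and forms of other tissues in the other, with liver as the first column. In the liver column Pklr stands at 102.1 TPM and Slc2a2 at 122.6 TPM, while Pkm stands at 2.85 TPM and Slc2a4 at 0.0973 TPM.

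Fat oxidation genes were mostly higher than the mean of the 6 tissues, while their median was near 0 against aorta and heart. Of 30 genes 25 were higher, 9 enriched and 4 lower, with a median of 2.40 (2.40 with the floor). The median was 5.08 and 5.04 against hippocampus and hypothalamus, 2.40 against fat and 1.89 against muscle, but 0.43 against heart, with 13 genes called 4-fold higher and 4 lower, and -0.36 against aorta, with 9 higher and 6 lower. Cpt1a had 832.8, 893.8 and 918.7 CPM in the 3 livers, against 20.6 to 115 CPM (median 32.9) in the other libraries, and the liver form of the enzyme that admits fatty acids to mitochondria differed by 4.46 ± 0.10, adjusted p = 3.38e-18. The 4 lower genes were Cpt1b, Oxct1, Fabp3 and Fabp4, the muscle, ketone-using, heart and fat cell members. Hadhb was not called, at 417.8 to 482.4 CPM in livers and up to 3241 CPM in aorta library 1. No other library reached the livers for Cpt1a.

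Fatty acid and sterol synthesis gave 25 higher of 31, 2 lower, 4 not called and only 5 enriched, with a median of 1.87 (1.87 with the floor). Elovl2 had 1120.3, 1085 and 1189.8 CPM in the 3 livers, against 0 to 11.9 CPM (median 0.395) in the other libraries, for an elongase of polyunsaturated fatty acids. Fads2 had 460.2, 461.2 and 469.4 CPM in the 3 livers, against 2.11 to 114.2 CPM (median 9.98) in the other libraries, a desaturase that differed by 4.96 ± 0.09, adjusted p = 2.65e-19. Scd1 had 21098, 23875 and 18309 CPM in the 3 livers, against 26.6 to 24382 CPM (median 368.4) in the other libraries, and this stearoyl desaturase of liver and fat overlapped aorta. Fasn had 383.4, 320.6 and 331.6 CPM in the 3 livers, against 13.7 to 10257 CPM (median 190.2) in the other libraries, and fatty acid synthase was not called (difference 0.41 ± 0.31, adjusted p = 0.267), its highest level being again in aorta library 1. The brain form Scd2 was lower, at 4.18 to 5.64 CPM in livers and 15.2 to 1860 CPM elsewhere (difference -4.66 ± 0.23, adjusted p = 6.56e-13). Scaling by total counts gave 17 higher and 6 lower in this list. The livers lay above all other libraries for Elovl2 and Fads2 and within their range for Fasn.

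Of 28 tested iron and haem genes (29 listed) 23 were higher, 11 enriched and 2 lower, with a median of 3.11. Hamp had 755.9, 1422 and 1092 CPM in the 3 livers, against 0 to 9.75 CPM (median 0.0253) in the other libraries, for hepcidin, the hormone that blocks iron export, and liver 1 was the lowest. Tfr2 had 703.6, 629.7 and 638.5 CPM in the 3 livers, against 0.0928 to 8.28 CPM (median 3.6) in the other libraries, and the iron-sensing transferrin receptor 2 differed by 8.33 ± 0.20, adjusted p = 7.68e-18. Cpox had 286.9, 291 and 283.8 CPM in the 3 livers, against 6.11 to 36.7 CPM (median 23) in the other libraries, a haem synthesis enzyme that differed by 3.99 ± 0.08, adjusted p = 6.45e-19. Tfrc, the transferrin receptor of dividing cells, was lower, at 32.1 to 40.1 CPM in livers and 19.8 to 252.3 CPM elsewhere (difference -0.50 ± 0.16, adjusted p = 0.0108), as was Bmp6, a hepcidin inducer of endothelial cells; without liver 2 the list had 1 lower gene. Each liver exceeded all other libraries for Hamp, Tfr2 and Cpox.

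Secreted hormones and growth factor carriers of the liver were higher in 28 of 28 tested and enriched in 20, with a median of 7.30 (7.26 with the floor); Epo, listed too, had 0 counts in livers and was not tested. Igf1 had 868, 739.6 and 726.9 CPM in the 3 livers, against 5.14 to 152.3 CPM (median 22.6) in the other libraries, and this mediator of growth hormone differed by 4.97 ± 0.13, adjusted p = 3.77e-17. Leap2 had 142.2, 212.4 and 191.3 CPM in the 3 livers, against 0 to 0.887 CPM (median 0.107) in the other libraries, for a peptide that blocks the ghrelin receptor. Fgf21 had 12.2, 19.3 and 26.2 CPM in the 3 livers, against 0 to 1.12 CPM (median 0.187) in the other libraries, for a fasting hormone, with liver 3 the highest. Tsku had 158.4, 271.6 and 239.2 CPM in the 3 livers, against 0.84 to 8.84 CPM (median 3.74) in the other libraries, a difference of 5.99 ± 0.14, adjusted p = 3.39e-18. Selenop had 9415, 7625 and 8877 CPM in the 3 livers, against 211.3 to 1341 CPM (median 571.9) in the other libraries, for the selenium carrier (difference 3.98 ± 0.13, adjusted p = 6.03e-16). For all 5 genes the lowest liver was above the highest other library.

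Uptake and transport genes were higher in 28 of 29 and enriched in 26, with a median of 9.87 (9.60 with the floor). Aqp9 had 908, 837.7 and 918.3 CPM in the 3 livers, against 0.19 to 7.03 CPM (median 1.27) in the other libraries, and the glycerol channel Aqp9 differed by 9.68 ± 0.13, adjusted p = 2.86e-20. Abcc3 had 588.4, 560.2 and 644.2 CPM in the 3 livers, against 0.716 to 27.5 CPM (median 1.74) in the other libraries, a conjugate exporter that differed by 7.87 ± 0.13, adjusted p = 4.82e-20. Asgr2 had 281.8, 250 and 255.4 CPM in the 3 livers, against 0 to 3.49 CPM (median 0.188) in the other libraries, for a subunit of the receptor that clears desialylated glycoproteins. The 1 not called, the amino acid carrier Slc43a1, had 2.58 to 5.52 CPM in livers and up to 51.9 CPM in muscle. All 19 tested of 22 listed major urinary protein genes were enriched, with a median of 12.42 (10.97 with the floor) and the uncertainty of near-identical copies. Mup6 had 970.1, 1109 and 922.7 CPM in the 3 livers, against 0 to 3.72 CPM (median 0.0775) in the other libraries. Mup21 had 311.8, 206.9 and 120.6 CPM in the 3 livers, with liver 1 the highest and liver 3 the lowest, against 0 to 1.54 CPM (median 0) in the other libraries. None of the 5 genes given by liver overlapped the other libraries.

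Transcription factors that keep hepatocyte genes active were mostly higher. Of 35 tested (36 listed) 33 were higher, 16 enriched, 0 lower and 2 not called, with a median of 3.74 (3.74 with the floor); without aorta library 2 it was 32 higher and 1 lower. Hnf4a had 1352, 1416 and 1408 CPM in the 3 livers, against 0 to 10.3 CPM (median 0) in the other libraries, for a nuclear receptor required by hepatocytes. Foxa3 had 82.3, 88.6 and 68.4 CPM in the 3 livers, against 0 to 0.828 CPM (median 0) in the other libraries, and by mean TPM in liver Foxa3 stood at 50.8, Foxa2 at 13.7 and Foxa1 at 10.5. Creb3l3 had 620.4, 670 and 710.8 CPM in the 3 livers, against 0 to 5.38 CPM (median 0.329) in the other libraries, for a membrane-bound factor of fasting lipid metabolism. Nr5a2 had 102.9, 85.3 and 94 CPM in the 3 livers, against 0 to 1.83 CPM (median 0.64) in the other libraries, for LRH-1, a nuclear receptor of bile acid genes. Cebpa had 446, 363.7 and 477.4 CPM in the 3 livers, against 3 to 629.1 CPM (median 12.5) in the other libraries, so that C/EBP alpha was higher than the mean by 3.52 ± 0.27, adjusted p = 5.01e-10 but overlapped fat. Zhx2, a repressor of some liver genes, and Dbp, a clock output factor, were not called. Dbp was lower in liver 2, at 4.9 CPM, than in the others, at 20.3 and 20.7 CPM. Apart from Cebpa, the factors given by liver overlapped no other library.

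Promoter sequences were taken from RefSeq on GRCm38.p6, 250 bases before to 50 after each listed gene start, and searched on both strands. Of 18529 genes tested 13119 had a window, as had 749 of the 1021 liver-enriched and 891 of the 1272 liver-low genes. The HNF1 motif GTTAATNATTAAC, with up to 2 mismatches among its 12 fixed bases, was found in windows of 69 liver-enriched genes, or 9.21 percent (95 percent Wilson interval 7.34 to 11.5), against 1.2 percent (1.02 to 1.4) of all 13119 genes and 0.337 percent (0.115 to 0.985) of liver-low genes. It was 2.54 percent against 0.191 percent with at most 1 mismatch, and 20.8 percent against 6.46 percent with 3. Of 72 matches in enriched genes 52, or 72.2 percent, began in the 120 bases before the start, with a median of -75. A site in overlapping windows of a gene, as in Serpina7 and Tfpi2, was counted once per window. Positions of matches in all genes are not given here, so this share has no background beside it. The following matches are shown with 6 bases on either side, 5′ to 3′ on the gene's strand, for the liver-enriched genes named by rule; 2 of these 8 matches have 1 mismatch and 6 have 2. Capitals mark bases equal to a fixed base of the motif, so that lower case inside the match marks the free base and the mismatches.
Alb (chr5:90460838-90460850, plus strand): agtatgGTTAATgATctACagttat
Aqp9 (chr9:71163400-71163412, minus strand): aataaaGgTAATgATTAAtctgtca
Cyp2e1 (chr7:140763707-140763719, plus strand): actgcaGcTAATaATaAACcagcac
Gc (chr5:89457938-89457950, minus strand): gacaaaGTTAATgATTAAaacctcc
Hnf4a (chr2:163506756-163506768, plus strand): tgactgGTTAcTgtTTAACgtatcc
Hnf4a (chr2:163547074-163547086, plus strand): ggggtgaTTAAccATTAACtcctac
Mia2 (chr12:59095558-59095570, plus strand): acccctGTTAATtATTAAgcccttc
Nr1h4 (chr10:89506686-89506698, minus strand): gatgggGTTAATcAgTAAaccacac

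A further 4 motifs were matched without mismatch, so their shares cannot be ranked against that of HNF1. The HNF4 motif CAAAGTCCA was in 2.94 percent (1.95 to 4.41) of enriched genes, against 0.587 percent of all and 0.449 percent of liver-low genes. FOXA (TGTTTAC) was in 6.68 percent (5.1 to 8.69) of enriched genes, against 3.31 percent of all and 3.7 percent of liver-low genes. The C/EBP motif TTGCGCAA was in 0.267 percent (0.0733 to 0.968), against 0.313 percent of all, and the HNF6 motif ATCGAT in 1.2 percent (0.633 to 2.27), against 0.976 percent of all, so that both intervals held the share of all genes. Overlap between matches of different motifs was allowed. Matches describe the letters only. Genes of a family, such as the Ugt1a group, can share a window or near-identical windows, so they are not independent.

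Full windows are shown for the gene of highest level and for Cyp3a11, a P450 among the 12 genes of highest level, whose window held 2 motifs. In that of Alb, chr5:90460620-90460919 on the plus strand, the HNF1 match is in capitals, and this is the window of the gene with 127494 to 136106 CPM in livers.
Alb: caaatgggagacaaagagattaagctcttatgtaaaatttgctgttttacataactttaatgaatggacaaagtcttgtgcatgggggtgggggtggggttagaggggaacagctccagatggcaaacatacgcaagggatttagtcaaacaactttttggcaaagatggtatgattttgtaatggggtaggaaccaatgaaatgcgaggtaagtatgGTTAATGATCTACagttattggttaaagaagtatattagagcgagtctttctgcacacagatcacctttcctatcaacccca
In that of Cyp3a11, chr5:145879805-145880104 on the minus strand, FOXA is the first run in capitals and HNF4 the second, for the gene with 10318 to 14602 CPM in livers.
Cyp3a11: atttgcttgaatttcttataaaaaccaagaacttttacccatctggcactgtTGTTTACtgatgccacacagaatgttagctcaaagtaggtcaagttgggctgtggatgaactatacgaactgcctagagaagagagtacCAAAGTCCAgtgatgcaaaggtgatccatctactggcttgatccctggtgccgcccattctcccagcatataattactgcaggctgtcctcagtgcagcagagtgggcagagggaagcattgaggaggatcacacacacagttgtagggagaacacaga

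Genes that every cell uses differed little from the mean of the 6 tissues by their medians, and the direction depended on the scaling and on the tissue. Of 43 ribosomal protein genes 9 were higher, 4 lower and 30 not called, with a median of 0.07, but 4 higher and 10 lower without aorta library 2, and 0 and 39 when scaled by total counts. Rps18 had 476.4, 479.5 and 453.7 CPM in the 3 livers, against 102.4 to 663.1 CPM (median 323.5) in the other libraries: its difference of 0.73 ± 0.12, adjusted p = 2.33e-05 became -0.11 under total counts. Of 31 proteasome genes 30 were higher and 0 lower (median 0.69), 29 and 0 with DESeq2's size factors, and 2 and 7 with total counts. Psmd11 had 201.9, 202.9 and 202.9 CPM in the 3 livers, against 35.4 to 130.6 CPM (median 49.3) in the other libraries, a difference of 1.83 ± 0.09, adjusted p = 5.99e-13. Relative to the median of all genes the proteasome median was 0.99 higher, the ribosomal median 0.37 higher and the respiratory median 0.18 higher. Of 35 tested respiratory chain genes (36 listed) 5 were higher and 12 lower (median -0.11), or 4 and 14 with DESeq2's size factors and 0 and 31 with total counts. The 12 lower are near the 35.7 percent of all tested genes called lower, and the 5 higher are under the 32.3 percent called higher. Against single tissues the respiratory median was -1.88 against aorta, -1.82 against heart and -1.44 against skeletal muscle, with 13, 15 and 9 genes called 4-fold lower, whereas it was 1.35 against epididymal fat, 1.14 against hippocampus and 1.31 against hypothalamus. The ribosomal median ran from -0.80 against muscle to 1.12 against hippocampus, and that of the proteasome from -0.21 against muscle to 1.31 against either brain region. Atp5o had 180.7, 183.4 and 180.6 CPM in the 3 livers, against 92.2 to 1835 CPM (median 551.6) in the other libraries, and this ATP synthase subunit differed by -1.07 ± 0.14, adjusted p = 1.2e-06. The heart and muscle subunits were at or near 0 in liver. Cox7a1 had 1.03, 2.06 and 1.11 CPM in the 3 livers, against 0.448 to 1485 CPM (median 263.1) in the other libraries (difference -4.71 ± 0.33, adjusted p = 1.25e-10). Cox6a2 had 0 counts in livers and 2131 CPM in heart library 3.

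Genes of the secretory pathway were higher in liver, few of them 4-fold. Of 36 tested (37 listed) 35 were higher, 4 of them enriched, and 1, Srp14, was lower, with a median of 1.66; scaled by total counts it was 27 and 5. P4hb had 2416, 2158 and 2321 CPM in the 3 livers, against 90.4 to 479.6 CPM (median 239.4) in the other libraries, and protein disulfide isomerase differed by 3.5 ± 0.11, adjusted p = 2.05e-16. Lman1 had 403.3, 344.9 and 360.1 CPM in the 3 livers, against 26.8 to 77.5 CPM (median 53.8) in the other libraries, a cargo receptor for coagulation factors that differed by 2.96 ± 0.06, adjusted p = 1.42e-18. Mia2 had 448.7, 422.1 and 443.4 CPM in the 3 livers, against 26.4 to 84.1 CPM (median 58.8) in the other libraries, for a protein that exports large lipoprotein cargo (difference 3.10 ± 0.08, adjusted p = 3.54e-17). Dnajc3 had 516.5, 455.2 and 463.7 CPM in the 3 livers, against 56.9 to 109.8 CPM (median 71) in the other libraries, a chaperone partner that differed by 2.67 ± 0.07, adjusted p = 7.16e-17. In each of these 4 genes all livers were above all other libraries.

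Cytoskeleton and matrix genes were mostly lower. Of 32 genes 24 were lower, 5 of them liver-low, 5 were higher and 3 not called, with a median of -2.47; scaled by total counts 3 were higher and 27 lower. Vim had 10, 13.8 and 9.19 CPM in the 3 livers, against 23.3 to 1228 CPM (median 300.8) in the other libraries, and vimentin, the filament of mesenchymal cells, differed by -4.21 ± 0.22, adjusted p = 9.01e-13. Tuba1a had 4.49, 4.9 and 4.18 CPM in the 3 livers, against 46.3 to 661.3 CPM (median 239.5) in the other libraries, a difference of -5.48 ± 0.26, adjusted p = 2.46e-13. Sparc had 34.6, 35 and 21.6 CPM in the 3 livers, against 292.2 to 3369.9 CPM (median 756) in the other libraries, a collagen-binding protein that differed by -4.73 ± 0.24, adjusted p = 9.53e-13. The keratins of hepatocytes went the other way, and Krt8 and Krt18 were enriched. Krt8 had 315.5, 337 and 339 CPM in the 3 livers, against 0 to 37.8 CPM (median 0.992) in the other libraries (difference 6.92 ± 0.39, adjusted p = 3.65e-12). Fibronectin, which hepatocytes release into plasma, was higher too. Fn1 had 2109, 2052 and 1893 CPM in the 3 livers, against 11.4 to 1062 CPM (median 100.3) in the other libraries (difference 4.26 ± 0.21, adjusted p = 5.54e-13). The livers lay below all other libraries for Vim, Tuba1a and Sparc and above them for Krt8 and Fn1.

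Of the 1272 liver-low genes, 1174 were protein coding, 324 had 0 counts in all 3 livers and 226 had a mean of at least 10 CPM in each of the 6 other tissues. Among these 226 the 10 with the largest difference included Ak1, Timp4, Acss1, Tppp3, Mcf2l, Cpe, Penk, Synpo2 and Lynx1. Cpe had 0.898, 1.16 and 1.53 CPM in the 3 livers, against 31.3 to 1986 CPM (median 241.3) in the other libraries, and carboxypeptidase E, which trims prohormones, differed by -8.26 ± 0.48, adjusted p = 6.15e-12. Lynx1 had 0.513, 0.387 and 0.557 CPM in the 3 livers, against 22 to 406.5 CPM (median 189.9) in the other libraries, a modulator of nicotinic receptors that differed by -7.98 ± 0.19, adjusted p = 1e-17. Acss1 had 0, 0.129 and 0.279 CPM in the 3 livers, against 12.5 to 388.8 CPM (median 33.9) in the other libraries, for the mitochondrial enzyme that activates acetate. Penk had 0.128, 0 and 0.139 CPM in the 3 livers, against 13.7 to 82.4 CPM (median 21.6) in the other libraries, for the enkephalin precursor, some of whose exons overlap another gene. Ak1 had 0, 0.387 and 0.139 CPM in the 3 livers, against 10.8 to 2081 CPM (median 76.7) in the other libraries, for cytosolic adenylate kinase. In all 10 the highest liver was below the lowest of the other 18 libraries, which follows largely from the rule that chose them. Liver counts were so few that leaving out liver 2 moved the differences of Ak1, Synpo2 and Tppp3 and leaving out liver 3 those of Acss1 and Mcf2l by over 1.5-fold.

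A smaller set, 154 genes, was higher in liver than the mean of the other tissues and yet at least 4-fold lower than in 1 of them. By level the first 6 were Acadl, Pgm1, Cox6a1, Agpat2, Tuba4a and Slc1a2. Acadl had 432.8, 419.2 and 464.8 CPM in the 3 livers, against 26.8 to 3061 CPM (median 216) in the other libraries, and this long-chain acyl-CoA dehydrogenase was 0.169 times the aorta level while higher than the mean by 0.89 ± 0.16, adjusted p = 5.54e-05. Pgm1 had 356.5, 348.1 and 365.1 CPM in the 3 livers, against 46.6 to 2696 CPM (median 153) in the other libraries, for phosphoglucomutase, highest in muscle and sharing exon bases with Itgb3bp (difference 0.96 ± 0.17, adjusted p = 5.3e-05). Slc1a2 had 215.2, 251.9 and 243 CPM in the 3 livers, against 0.0755 to 2256 CPM (median 0.759) in the other libraries, and this glutamate carrier of astrocytes and hepatocytes was 0.116 times the hippocampus level (difference 5.08 ± 0.27, adjusted p = 1.97e-12). Agpat2 had 290.4, 332.8 and 300.8 CPM in the 3 livers, against 0.822 to 1635 CPM (median 44.8) in the other libraries, for an enzyme of triglyceride synthesis that was 0.244 times the aorta level (difference 3.42 ± 0.24, adjusted p = 1.48e-10). Aorta library 1 was the highest library for Acadl, Cox6a1 and Agpat2, beside the fat cell markers given above, and their part in it was not tested. Agpat2 shares exon bases with Egfl7 and Slc1a2 with Gm13872. For each of the 4 genes the livers lay within the range of the other libraries.

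The same comparison was made in the other 9 mice, which share no library with it. By the same rule 1007 of 18547 genes were liver-enriched in WT mice on HFD (5.43 percent), 953 of 18580 in ob/ob mice on ND (5.13 percent) and 931 of 18418 in ob/ob mice on HFD (5.05 percent). Of the 1021 genes of lean WT mice 860 met the rule in WT mice on HFD (84.2 percent, and 85.4 percent of that group's set), 810 in ob/ob mice on ND (79.3 and 85 percent) and 804 in ob/ob mice on HFD (78.7 and 86.4 percent). All 4 groups shared 750, or 73.5 percent, and 112, or 11 percent, met it in lean WT mice alone. Most of the rest missed the 4-fold rule and not the direction: of the 986, 968 and 959 that could be tested in those groups, 986, 966 and 958 were called higher than the mean of the other tissues. Liver-low genes numbered 846 (4.56 percent), 1073 (5.78 percent) and 766 (4.16 percent) in the same order, and shared 674, 778 and 584 with the 1272 of lean WT mice. The difference between groups of mice was not tested.

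By list, the count of enriched genes differed most for the major urinary proteins. Plasma proteins had 27, 25 and 26 enriched in WT mice on HFD, ob/ob mice on ND and ob/ob mice on HFD, against 26 in lean WT mice. Bile acid genes had 23, 21 and 22, against 24, and urea and amino acid genes had 43, 43 and 42, against 42. Of the major urinary proteins 18 of 18 tested, 9 of 9 and 6 of 7 were enriched in those groups, against 19 of 19 in lean WT mice, so that the counts differ mostly in how many members had enough counts to be tested. Mup7 had 58.3 to 8280.0 CPM in livers of WT mice on HFD, 0.109 to 70.2 CPM in livers of ob/ob mice on ND and 0.461 to 2.43 CPM in those of ob/ob mice on HFD, against 5381 to 11709 CPM in lean WT livers. Mup20 had 1504 to 4842 CPM in livers of WT mice on HFD, 472.6 to 546.8 CPM in livers of ob/ob mice on ND and 641 to 3704 CPM in those of ob/ob mice on HFD, against 2102 to 2297 CPM in lean WT livers. Alb, by contrast, had 88999 to 107253 CPM in livers of WT mice on HFD, 110055 to 122990.0 CPM in livers of ob/ob mice on ND and 77174 to 109687 CPM in those of ob/ob mice on HFD, against 127494 to 136106 CPM in lean WT livers.

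The 3 lean WT livers agreed closely for most enriched genes. Over the 863 with at least 10 CPM, the highest liver was a median of 1.16 times the lowest, and 775 (89.8 percent) lay within 1.5-fold. The 4 that differed by over 4-fold were Marco, Xlr3a, Mup5 and Nipal1, chosen here after their values were seen. Xlr3a had 1.8, 26.8 and 13.2 CPM in the 3 livers. Nipal1 had 23.2, 8.25 and 5.71 CPM in the 3 livers, so that liver 1 was the lowest for Xlr3a and the highest for Nipal1. Nothing in the labels says that these mice came from separate litters or batches, so the p values measure only the spread between these samples.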

How the data were processed

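Per the labels' protocols, RNA was extracted with TRIzol, made into TruSeq libraries and sequenced on a NextSeq. Trimmomatic 0.36, HISAT2 2.0.5 and featureCounts 1.5.0-p2 are the tools in the submitters' processing notes, with GRCm38 as the build, while the file header gives featureCounts 1.5.1. The deposited values are raw counts of read pairs over exons per Ensembl gene, per the file headers, with no strand option and no multimapping reads, so overlapping or antisense genes cannot be told apart and near-identical copies lose reads. From these counts, edgeR 4.0.16 (R 4.3.3, TMM, filterByExpr with a smallest count of 10 and total of 15) fitted 1 mean per tissue to 21 libraries with the quasi-likelihood test. Liver was set against the equal-weight mean of 6 tissues and against each. The fit was tried on simulated counts that gave all tissues the same profile and changed some genes in liver. That trial cannot test the scaling between unlike tissues. The other 3 groups of mice were fitted separately. Genes without a tested contrast stayed out, and some genes are not reported here. Members and gene lists were chosen with earlier results of these data known. The 12 enriched genes of highest CPM, the 10 of largest difference, the 10 liver-low and the 6 shared genes were named by rule, as were up to 6 members of smallest p in each list and both isozyme lists; list members named beyond it were chosen after their values were seen. Genes chosen in these ways tend to have livers apart from the other libraries, and the share of all tested genes without overlap is not given here. Mouse numbers are the numbers in the titles, read as the same mouse across all 7 tissues. The median correlation of deviations was 0.0102 within a mouse (-0.165 to 0.201) and -0.00306 between mice. No batch or date is given. Alternatives were DESeq2 1.42.0, other scalings and thresholds, the mouse as a block, left-out libraries and tissues and, added after the data were seen, limma 3.58.1 voom and ratios without fat library 2 and muscle library 1.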

Additional observations from a re-analysis of the deposited data

How the results depend on the processing

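Scaling by total counts alone, without TMM, moved counts by over 1.5 times: 3088 higher and 10897 lower against the mean of 6 tissues, 2917 and 10143 against aorta, 2283 and 11749 against epididymal fat (1175 and 6162 at 4-fold), 3185 and 11685 against hippocampus (1744 at 4-fold higher), 3036 and 12105 against hypothalamus (1666 at 4-fold higher), and 167 list genes lower. It also reversed gene Rps18 (-0.11), gene Rpl23 (-0.18), gene Rpl5 (-0.23), gene Rpl10a (-0.23), gene Psmc6 (-0.03), gene Psma3 (-0.09), gene Aldoc (-0.09), gene Arg2 (-0.17), gene Eno1 (-0.01), gene Pgam1 (-0.24), gene Cd4 (-0.42) and gene Zbtb20 (-0.36). With both brain regions as 1 tissue, gene Ms4a1 (-0.34) reversed. Requiring a 2-fold difference in the test itself left 2981 higher and 4183 lower, and other fold minimums gave 1642 enriched genes at 2-fold and 591 at 16-fold, and 531 liver-low genes at 16-fold, by their construction. The HNF1 share was 2.54 percent of enriched and 0.191 percent of all genes with 1 mismatch, and 20.8 and 6.46 percent with 3. Leaving out each library in turn gave 5272 to 6128 higher, 6047 to 7506 lower, 986 to 1071 enriched and 1141 to 1383 liver-low genes. Without liver 2, gene Adgre1 (-0.02 to 1.35 over the left-out libraries) and gene Cd4 (-0.26 to 0.81) reversed. With the mouse as a replicate block there were 5968 higher, 6592 lower, 1023 enriched and 1254 liver-low genes, and no count moved by over 1.5 times. Counts over all genes with DESeq2 (5758 higher, 7650 lower), DESeq2 size factors (5624, 6978) and voom (6373, 8454) kept within 1.5 times. Counts of some single lists moved further. With DESeq2, 19 plasma proteins were higher and 1 lower, against 28 and 0, and 7 hepatocyte markers were higher, against 10. It called 16 coagulation genes higher, against 22, and 9 cardiomyocyte markers lower, against 5. With voom 7 hypothalamic markers were lower, against 2. Except as stated the cause was not tested. With 3 libraries a tissue and 10725208 to 15954085 counts each, a gene under 3 counts over a tissue has no measurable level there.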

Other observations

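Liver-enriched genes lay next to each other in places. In the order of all tested genes along the chromosomes (GRCm38, coordinates of the deposited count table), 26 runs of 4 or more adjacent liver-enriched genes held 167 of the 1021, or 16.4 percent. The same count for other sets of genes is not given here, so this share is a description. The longest, of 30 genes, was the major urinary protein cluster (chromosome 4, 59956804 to 62150863). Next came 13 genes of the Cyp2c cluster (chromosome 19, 39007019 to 40187333), 9 of the Cyp2d cluster (chromosome 15, 82370528 to 82794245) and 9 of Ugt2b and sulfotransferase genes (chromosome 5, 87000860 to 87569027). Secreted proteins formed shorter runs. Serpina genes made 6 (chromosome 12, 103614786 to 103863562) and the 3 fibrinogen genes with a neighbour 4 (chromosome 3, 82892579 to 83049863). Alb stood with its relatives Afp and Afm in a run of 4 (chromosome 5, 90460897 to 90597871), Apoe, Apoc1 and Apoc4 in another (chromosome 7, 19671584 to 19699188) and Apoa1, Apoa4, Apoa5 and Apoc3 in one more (chromosome 9, 46228580 to 46271919). Copies within a cluster can share reads, so neighbouring calls are not independent.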
